A study of Mus musculus with 4 samples.

Results

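The genes examined here encode contractile proteins that are characteristic of smooth muscle, together with close relatives of them that other cells use. They are Tagln, Cnn1, Cnn2, Cnn3, Myh11, Myl9, Smtn, Lmod1 and Mylk, chosen by name, and every listed transcript of each gene was summed. All 9 were present among the 21878 genes of the mRNA table, and they hold 27 of its 75959 transcripts. The values come from C3H10T1/2, a mouse mesenchymal cell line derived from C3H embryos. Sequencing covered 2 untreated samples (replicates 1 and 2) alongside 2 that had been exposed to 20 μM 5-AZA (5-azacytidine, a cytidine analogue that lowers DNA methylation) for 72 hours and then kept in fresh medium for 21 days (replicates 101 and 102). No length of culture is given for the untreated samples, so the agent and the time in culture cannot be told apart. The study mentions picking clones of myotube-like cells with a cell ring, and the sources used here do not say whether the sequenced samples were made this way. In bulk RNA, more cells of a type and more RNA per cell cannot be told apart.

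In smooth muscle, calcium bound to calmodulin activates myosin light chain kinase (Mylk). The kinase phosphorylates the regulatory light chain (Myl9), and this lets the smooth muscle myosin heavy chain (Myh11) pull on actin. Calponin 1 (Cnn1), transgelin (Tagln, also called SM22α), smoothelin (Smtn) and leiomodin 1 (Lmod1) bind the actin filaments. Many of these genes are switched on by serum response factor with its partner myocardin, which bind a short sequence known as the CArG box. Fully differentiated smooth muscle is usually recognised by Myh11 and Smtn, while Tagln also appears in immature smooth muscle, in myofibroblasts and for a time in developing striated muscle.

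The 9 genes did not move as a block. Tagln, Myl9, Mylk and Cnn1 rose after 5-AZA, Lmod1 passed the test at less than 2-fold, Cnn2, Cnn3 and Smtn did not pass it, and Myh11 was too low to be tested. Values are FPKM (fragments per kilobase of transcript, scaled to the number of fragments sequenced) summed per gene. limma was fitted to log2(FPKM + 0.1) of the 13199 genes with a mean of at least 0.1 FPKM. A gene was called where its Benjamini-Hochberg adjusted p-value over all these genes was below 0.05 and its change over 2-fold. By this rule 4 of the 9 were called higher and none lower, where 13.1% of all genes tested were called higher and 1.32% lower. One of the 4, Cnn1, reached the limit of 0.1 FPKM through the 5-AZA samples alone. Over the 8 members tested the median log2 fold change was 1.53, against 0.05 over all genes tested. It was 0.87 with a pseudocount of 1 FPKM, and 0.81 with a limit of 1 FPKM or with no limit on low values. Values of the untreated and the 5-AZA samples did not overlap in 7 of the 8, and the same held for 62.2% of all genes tested.

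**Figure D1:**
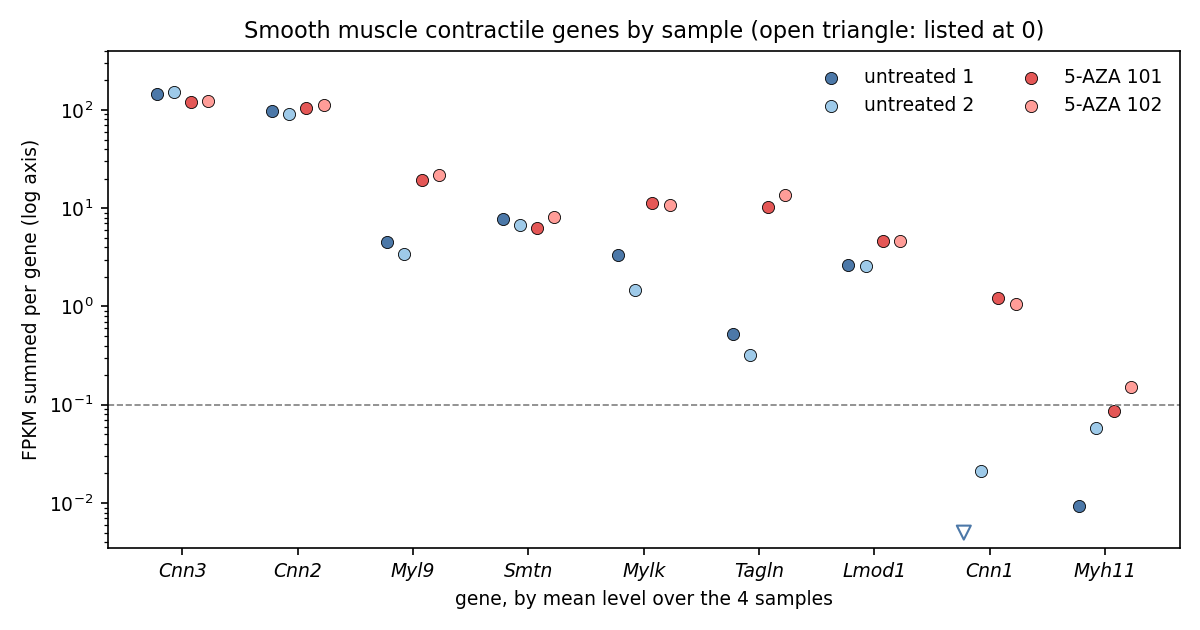
FPKM summed per gene (log axis) in each of the 4 samples for the 9 genes, ordered by mean level; blue points are untreated and red points 5-AZA samples, the open triangle is a value listed at 0, and the dashed line marks the limit of 0.1 FPKM. Tagln, Myl9, Mylk and Cnn1 lie clearly apart between the groups, Smtn overlaps, and Myh11 stays at or below 0.152 FPKM in every sample.

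Transgelin, an actin-binding protein of the calponin family, had the largest fitted change of the 8, except with a pseudocount of 0.01 FPKM, where that of Cnn1 exceeded it. Tagln (NM_011526.5, the only transcript listed) stood at 0.530 and 0.321 FPKM in the untreated samples and at 10.3 and 13.5 FPKM in the 5-AZA samples. Both untreated samples were near the floor and both 5-AZA samples at least 10 FPKM. By limma the difference was 4.53 on the log2 scale, with a standard error of 0.26 (adjusted p = 5.47e-06), and the ratio of the group means was 27.9. With either 5-AZA replicate left out the gene was still called, with adjusted p-values of 0.0446 and 0.0490. In such a fit the 5-AZA group is a single sample, which is assumed to vary like the untreated pair.

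The other transgelins did not follow. Tagln2, the widely expressed relative, was listed at 87.6 and 79.6 FPKM in the untreated and at 56.5 and 63.1 FPKM in the 5-AZA samples. Its log2 fold change, -0.48, passed the test at less than 2-fold (limma, adjusted p = 0.00989). Tagln3, a neuronal relative, was at or below 0.466 FPKM in every sample. As a share of the 3 transgelins per sample, Tagln made up 0.601% and 0.401% of the FPKM in the untreated samples and 15.4% and 17.5% in the 5-AZA samples. Tagln2 was still the most abundant transgelin in each sample.

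Calponins bind actin and inhibit the ATPase of myosin. Calponin 1 is the form of differentiated smooth muscle, while calponins 2 and 3 are found in many cell types. Of the 3 calponins, Cnn1 alone was called. Cnn1 was listed at 0 in untreated replicate 1, at 0.0212 FPKM in replicate 2, and at 1.23 and 1.07 FPKM in 5-AZA replicates 101 and 102. Cnn1 reached the limit of 0.1 FPKM through the 5-AZA samples alone, and none of its transcripts was called on its own. Its transcript XM_006509969.3 was at 0.679 FPKM in 5-AZA replicate 101 and at 0.00374 FPKM in replicate 102. The gene was called higher (adjusted p = 1.13e-04, limma), and no fold is given because 1 of its untreated values is listed at 0. Its fitted log2 change ran from 1.09 with a pseudocount of 1 FPKM to 6.04 with 0.01 FPKM.

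Cnn2 was at 96.4 and 90.2 FPKM in the untreated and at 105 and 113 FPKM in the 5-AZA samples. Cnn3 was at 146 and 151 FPKM and then at 119 and 124 FPKM. Their groups do not overlap, yet the changes are small, with log2 values of 0.23 for Cnn2 (limma, adjusted p = 0.131) and -0.29 for Cnn3 (adjusted p = 0.0535). Neither passed the test. Quantile normalization took the adjusted p-values to 0.0488 and 0.0249, and centring each sample on its median took that of Cnn3 to 0.0154, all at less than 2-fold. The ratio of Cnn2 to Cnn3 within a sample is unchanged by a single factor applied to the whole sample, though quantile normalization can change it. Before any such scaling, this ratio was 0.661 and 0.597 in the untreated and 0.883 and 0.909 in the 5-AZA samples. Cnn3 exceeded Cnn2 in each sample, by a narrower margin after 5-AZA. Cnn1 made up at most 0.545% of the calponin FPKM in any sample.

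The 3 calponin genes also differ in the DNA in front of them. The promoter windows come from RefSeq (GRCm38.p6) and span 250 bases before and 50 after a gene's start. Entries were found for 7 of the 9 genes, and not for Tagln and Myh11. They are shown because 5-AZA, once built into DNA, traps the enzymes that methylate cytosine, and methylated cytosine in mammals lies mostly in CG pairs. Below are 100 bases before the most upstream listed start of each calponin, 5′ to 3′ on the gene's strand, with every CG in capitals.
Cnn1: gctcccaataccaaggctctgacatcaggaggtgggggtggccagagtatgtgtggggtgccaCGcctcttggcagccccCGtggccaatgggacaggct
Cnn2: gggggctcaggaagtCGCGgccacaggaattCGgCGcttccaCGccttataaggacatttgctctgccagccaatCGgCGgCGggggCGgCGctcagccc
Cnn3: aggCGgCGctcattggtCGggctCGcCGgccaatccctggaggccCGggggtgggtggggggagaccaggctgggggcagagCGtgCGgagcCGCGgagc
These stretches lie at chr9:22099121-22099220, chr10:79988500-79988599 and chr3:121426441-121426540, all on the plus strand. For Cnn1 an annotated start lies upstream of the one in the promoter table, so its stretch ends 33 bases before the latter. The Cnn1 stretch holds 2 CG pairs, and those of Cnn2 and Cnn3 hold 10 each. Over the whole window of 300 bases, Cnn1 had 6 CG pairs and Cnn2 and Cnn3 had 33 each, against a median of 7 over 32851 such windows (25th to 75th percentile 3 to 20). Among the other members, Mylk had 4, Lmod1 7, Smtn 11 and Myl9 20. DNA methylation was not measured, so these counts describe the sequence only.

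Myl9 encodes the regulatory light chain of smooth muscle myosin, the substrate of the kinase encoded by Mylk. Its summed level was 4.50 and 3.45 FPKM in the untreated samples and 19.3 and 22.0 FPKM in the 5-AZA samples. Both 5-AZA samples were well above both untreated ones, and the rise was 5.12-fold (log2 2.36 with a standard error of 0.16; limma, adjusted p = 1.48e-05). NM_172118.1 carried 92.5% to 100% of the sum and was itself called (adjusted p = 0.00634, limma). With 5-AZA replicate 101 or 102 left out, the change was 2.45 or 2.26 with adjusted p-values of 0.0550 and 0.0612, short of the threshold.

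Myl9 was a minor regulatory light chain throughout. Of the FPKM of Myl9, Myl12a and Myl12b, the latter being the light chains of non-muscle cells, Myl9 made up 1.28% and 1.01% in the untreated and 6.29% and 5.97% in the 5-AZA samples. Myl12a was at 241 and 248 FPKM and then at 193 and 238 FPKM, and it did not pass the test (adjusted p = 0.293, limma). These 3 genes are close in sequence, and reads shared between them were divided by the authors' quantification.

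A CArG box was found in the windows of Myl9 and Cnn2 and in none of the other 5 members with an entry. Of all 32851 windows 1.63% hold one. Both strands are covered, since the motif reads the same in either direction. The surrounding 60 bases are shown with the box in capitals, because the Myl9 gene was called higher while the Cnn2 gene was not.
Myl9: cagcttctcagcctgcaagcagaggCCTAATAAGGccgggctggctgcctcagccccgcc
Cnn2: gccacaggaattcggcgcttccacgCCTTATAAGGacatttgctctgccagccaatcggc
They lie at chr2:156775278-156775337 and chr10:79988519-79988578 (GRCm38.p6, plus strand), and the boxes begin 161 and 56 bases before the start used in the table. A match of letters is not evidence of binding, and a gene without one may have a box elsewhere.

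Mylk encodes myosin light chain kinase in a long and a short form. An internal promoter near the end of the gene also gives telokin, a small smooth muscle protein that is the tail of the kinase without its catalytic part. The sum of 5 transcripts was 3.33 and 1.48 FPKM in the untreated samples and 11.2 and 10.9 FPKM in the 5-AZA samples. The groups were apart although the untreated samples differed from each other, and the rise was 4.78-fold (log2 2.26 with a standard error of 0.31; limma, adjusted p = 9.00e-04).

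The spread between the untreated samples came from a single predicted transcript. XM_006521705.2 was listed at 1.91 FPKM in untreated replicate 1, at 0.00113 FPKM in replicate 2, and at 7.22 and 4.83 FPKM in the 5-AZA samples. NM_139300.3, the curated transcript, was steadier, at 0.900 and 0.850 FPKM and then at 2.27 and 2.78 FPKM. With curated transcripts alone, which for Mylk means NM_139300.3 only, the rise was 2.68-fold (adjusted p = 0.0167, limma) and the gene was still called. The same values were not called in the fit of single transcripts (adjusted p = 0.126, limma). No Mylk transcript was called on its own, with adjusted p-values of 0.117 to 0.461 (limma, 4 transcripts tested). How reads from shared exons are assigned to 1 transcript or another can vary between samples. The gene was no longer called with 5-AZA replicate 101 or 102 left out (adjusted p = 0.176 and 0.175), or without a limit on low values (adjusted p = 0.0941).

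The lncRNA table lists a transcript inside this gene. NONMMUT026407.2 is a single-exon transcript of 1147 bases on chromosome 16, from 35001273 to 35002419 on the plus strand, which is the strand of Mylk. It ends 17 bases before the end of the Mylk gene in GRCm38.p6. Its level was 11.7 and 11.1 FPKM in the untreated samples and 43.9 and 47.4 FPKM in the 5-AZA samples. The replicates of each group lay close together and the groups far apart, and the log2 difference was 1.99 with a standard error of 0.17 (limma, adjusted p = 0.0257 over the 24075 lncRNAs tested). Of those lncRNAs 0.984% were called higher. No other setting was run for lncRNAs, and the study's qRT-PCR of NONMMUT026407.2 is not reported here. Its rise therefore rests on this single fit of the sequencing values. Per length, this stretch exceeded the Mylk sum 3.53 and 7.50 times in the untreated and 3.93 and 4.35 times in the 5-AZA samples. Reads from the end of Mylk transcripts and reads from a separate RNA on the same strand cannot be told apart here.

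**Figure D2:**
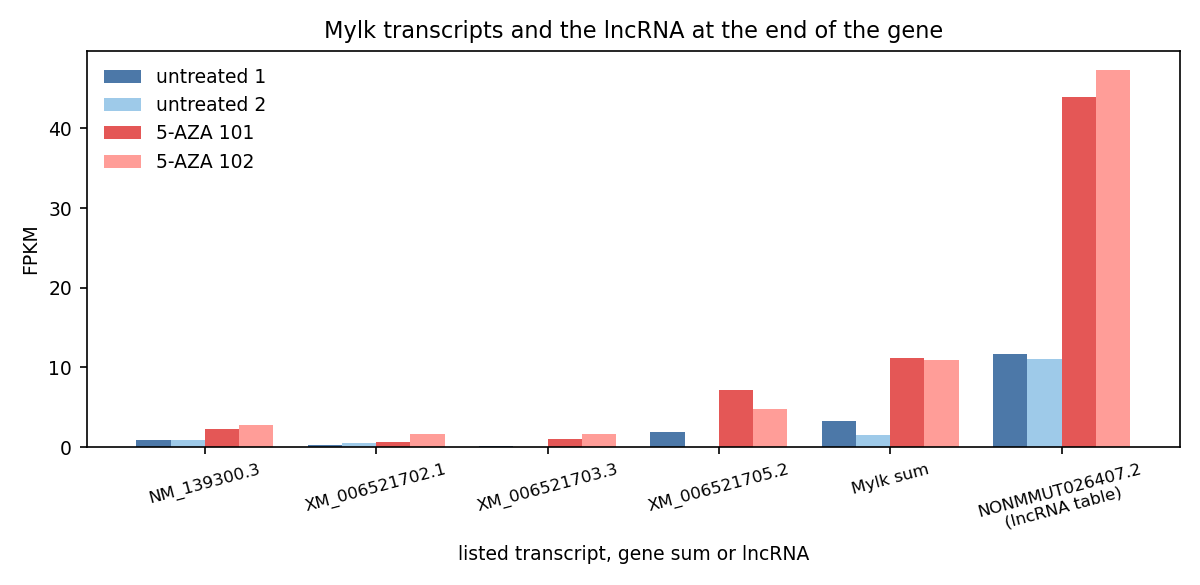
FPKM in each sample (bars start at 0) of the 4 Mylk transcripts with a mean of at least 0.1 FPKM, of the sum over all Mylk transcripts and of the lncRNA NONMMUT026407.2 at the end of the gene. XM_006521705.2 is almost absent in untreated replicate 2, while the lncRNA is at 11.7 and 11.1 FPKM in the untreated and at 43.9 and 47.4 FPKM in the 5-AZA samples.

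Of 21 lncRNAs whose listed position overlaps one of the 9 genes, 5 reached a mean of 0.1 FPKM, and NONMMUT026407.2 alone was called. NONMMUT112061.1, inside Cnn3 and on its strand, was at 2.94 and 4.61 FPKM in the untreated and at 1.85 and 2.18 FPKM in the 5-AZA samples, and its log2 difference of -0.84 did not pass the test (limma, adjusted p = 0.376). Of the 4295 circRNAs listed, 0 have one of the 9 as host gene.

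Leiomodin 1 starts new actin filaments in smooth muscle. Lmod1 (NM_053106.2) was at 2.65 and 2.56 FPKM in the untreated and at 4.62 and 4.63 FPKM in the 5-AZA samples. The samples of each group were nearly equal, and the log2 difference of 0.81 with a standard error of 0.17 (limma, adjusted p = 0.00872) is a 1.75-fold rise, under the 2-fold limit. With either 5-AZA replicate left out it no longer passed the test. The leiomodins of striated muscle were near 0 in the untreated samples. Lmod2 went from 0.00988 and 0.00960 to 2.39 and 3.86 FPKM. Lmod3, listed at 0 in both untreated samples, reached 4.18 and 6.40 FPKM. Both were called, and both passed the limit of 0.1 FPKM through the 5-AZA samples alone. Lmod1 therefore held 99.6% of leiomodin FPKM in each untreated sample and 41.3% and 31.1% in the 5-AZA samples.

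Smoothelin, an actin-binding protein of contractile smooth muscle with a longer form in vessels, was the only member whose groups overlapped. Smtn was at 7.69 and 6.77 FPKM in the untreated and at 6.24 and 8.22 FPKM in the 5-AZA samples. Between the group means lay -0.01 on the log2 scale, with a standard error of 0.17 (limma, adjusted p = 0.976). NM_013870.3 carried 82.4% to 87.4% of the sum in each sample, and the other 7 transcripts each stayed at or below 0.629 FPKM.

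Myh11, the smooth muscle myosin heavy chain and the most specific marker of the set, was close to nothing in every sample. It was listed at 0.00941 and 0.0583 FPKM in the untreated and at 0.0862 and 0.152 FPKM in the 5-AZA samples, summed over 5 transcripts. The 5-AZA values were the higher ones, but the mean was below 0.1 FPKM and the gene was not tested. Without a limit on low values its log2 change was 0.72 (adjusted p = 0.246, limma). The heavy chains of non-muscle cells were abundant. Myh9 held 85.3% to 88.1% of the FPKM of Myh9, Myh10 and Myh11 in each sample, and Myh11 at most 0.148%.

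**Figure D3:**
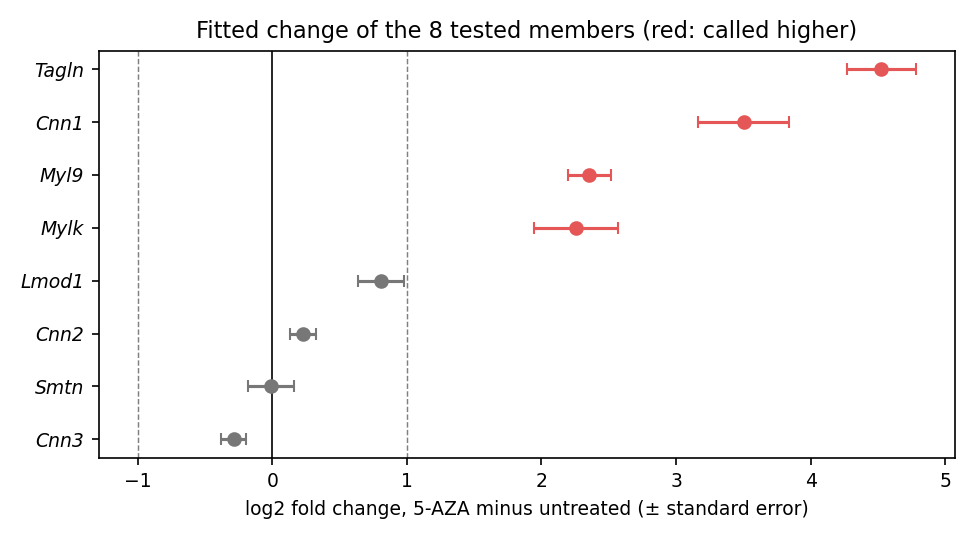
Fitted log2 fold change of the 8 tested genes (points) with its standard error (bars), on the log2(FPKM + 0.1) scale; red points were called higher, and dashed lines mark a 2-fold change. Tagln, Cnn1, Myl9 and Mylk lie beyond 2-fold, Lmod1 at 0.81 falls short of it, and Cnn2, Smtn and Cnn3 lie near 0.

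The order of the members by level changed with the group. In the untreated samples it ran Cnn3, Cnn2, Smtn, Myl9, then Lmod1 and Mylk, whose values overlapped, then Tagln, and last Myh11 and Cnn1, which overlapped as well. In the 5-AZA samples it ran Cnn3, Cnn2, Myl9, then Tagln and Mylk, whose values overlapped, then Smtn, Lmod1, Cnn1 and Myh11. Among the genes tested, Cnn3 and Cnn2 stood between the 95.7th and 97.5th percentile of FPKM in each sample. Tagln stood at the 17.3rd and 14.7th percentile in the untreated and at the 62.8th and 67.5th in the 5-AZA samples. With curated transcripts alone, 3 of the 9 took another place in the order.

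**Figure D4:**
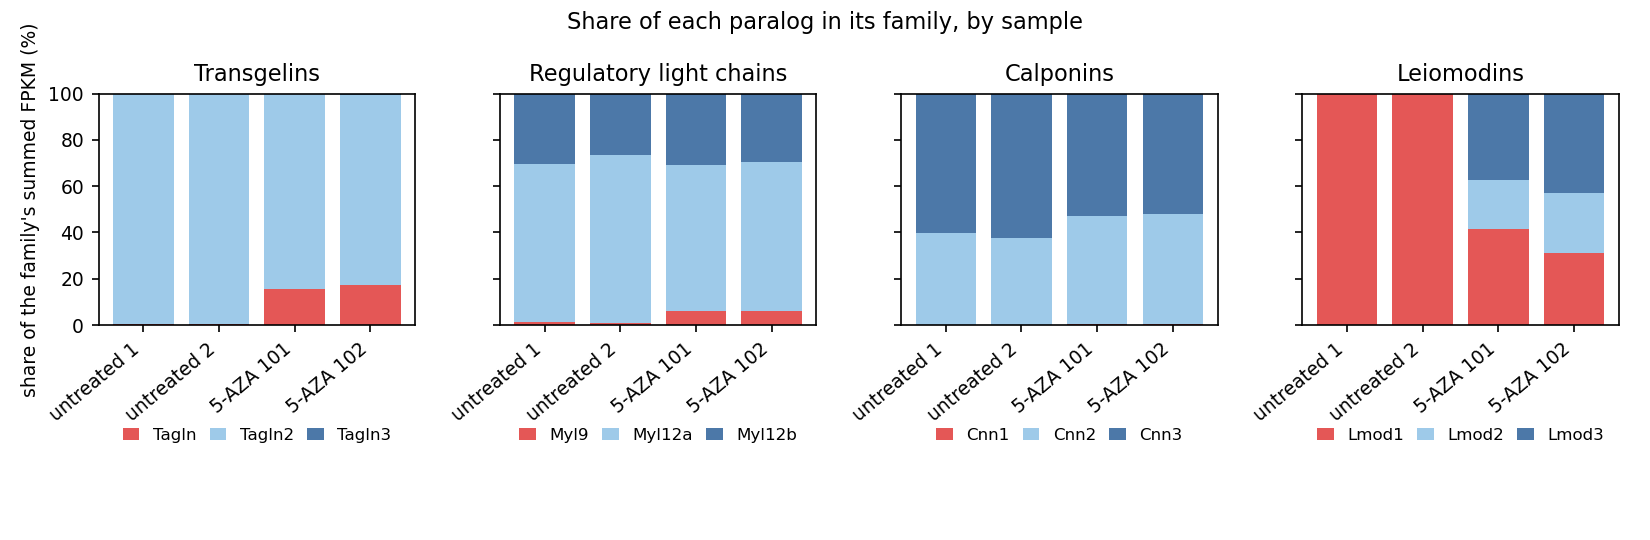
Share of each paralog in the summed FPKM of its family (stacked bars, percent, from 0 to 100) in the 4 samples, for transgelins, regulatory light chains, calponins and leiomodins. Tagln grows from 0.601% and 0.401% to 15.4% and 17.5% of transgelin FPKM, while Lmod1 falls from 99.6% to 41.3% and 31.1% of leiomodin FPKM.

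By the terms listed beside each gene, 7 of the 9 are annotated with actin binding, all but Myl9 and Tagln, and 5 with calmodulin binding. Tagln, like Myh11, has the related term actin filament binding. The KEGG pathway Vascular smooth muscle contraction lists 3 of the 9, Myh11, Myl9 and Mylk. That pathway, looked up after the values were seen, has 135 genes in the table and 86 tested. Of these 27 (31.4%) were called higher and 4 lower, where 13.1% of all genes tested were called higher and 1.32% lower. The median over the 86 was 0.30 on the log2 scale. Of the 31 calls, 12 had an untreated mean below 0.1 FPKM. With a pseudocount of 1 FPKM 13 of 86 were called higher, and 875 of 13199 over all genes. With a limit of 1 FPKM the counts were 13 of 64 and 845 of 10800. With no limit on low values they were 13 of 113 and 1179 of 17510. After quantile normalization 16 of 86 were higher and 6 lower, against 1041 and 886 of 13199. With 5-AZA replicate 101 or 102 left out, the median log2 change of the pathway was 0.38 or 0.15. The 27 include Myl9, Mylk, Actg2 and Ppp1r14a, and also genes of skeletal muscle such as Mylk2 and Cacna1s.

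Other structural genes of the smooth muscle cell were divided too. Of 20 genes for its cytoskeleton and membrane, 18 were tested, and 6 (33.3%) were called higher and 0 lower. Over all genes tested 13.1% were called higher. The median log2 fold change of the 18 was 0.73. Without a fold limit 10 were higher and 2 lower, the latter being Itga5 (log2 fold change -0.67) and Actn1 (-0.54). By unadjusted p-value below 0.05 (limma), 10 were higher and 5 lower. With 1 sample left out, 3 to 6 were called. Those called include Des, Synpo2, Tpm2, Actg2 and Itga8. Smooth muscle α-actin, Acta2, was already high, at 185 and 191 FPKM in the untreated samples and at 196 and 273 FPKM in the 5-AZA samples, and it did not pass the test (log2 fold change 0.30, adjusted p = 0.193, limma). Smooth muscle γ-actin, Actg2, rose from 2.63 and 2.39 FPKM to 8.27 and 14.5 FPKM (log2 fold change 2.09, adjusted p = 3.78e-04, limma). Desmin, the muscle intermediate filament that skeletal and smooth muscle share, rose from 0.335 and 0.162 FPKM to 18.1 and 30.2 FPKM (log2 fold change 6.12, limma). Tpm2, a tropomyosin that these tissues also share, rose from 30.4 and 28.2 FPKM to 128 and 189 FPKM. Synpo2, an actin-bundling protein, rose from 0.0967 and 0.0706 FPKM to 1.09 and 1.68 FPKM, and passed the limit of 0.1 FPKM through the 5-AZA samples alone. Kcnmb1, the channel subunit of smooth muscle, was listed at 0 in each sample.

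Among genes that set light chain phosphorylation, the share called higher was near that of all genes. Of 19 such genes and non-muscle myosins, 18 were tested, 2 (11.1%) were called higher and 0 lower (limma), and the median log2 fold change was -0.14. By unadjusted p-value below 0.05, the counts were 3 higher and 5 lower; centring or quantile normalization gave 1 lower call each, and there was no higher call with 5-AZA replicate 101 or 102 left out, or without a limit on low values. Ppp1r14a, which encodes the inhibitor CPI-17 of myosin phosphatase, was listed at 0.156 and 0 FPKM in the untreated and at 1.57 and 2.95 FPKM in the 5-AZA samples. Its untreated mean was below 0.1 FPKM, so this call passed that limit through the 5-AZA samples alone. Myl6b, an essential light chain that slow striated muscle shares, rose from 0.135 and 0.463 FPKM to 3.93 and 5.22 FPKM (log2 fold change 3.67, limma). Myl6, the essential light chain of smooth muscle and non-muscle cells, was at 1213 and 1216 FPKM in the untreated and at 987 and 1228 FPKM in the 5-AZA samples. Rock2, a kinase that acts on myosin phosphatase, passed the test at less than 2-fold (log2 fold change 0.82, adjusted p = 4.76e-04, limma).

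The transcription factors of the smooth muscle program showed no call. Of 11 listed regulators 10 were tested, and 0 were called by limma. Without adjustment, 0 were higher and 1 was lower at p below 0.05. Their median log2 fold change was -0.13. Myocd (myocardin) was listed at 0 and 0.0120 FPKM in the untreated and at 0.0280 and 0.0797 FPKM in the 5-AZA samples, too low for a test. Srf (serum response factor) was at 9.82 and 6.62 FPKM and then at 8.52 and 9.15 FPKM (log2 fold change 0.13, adjusted p = 0.684, limma). Mkl1 and Mkl2, the myocardin-related factors, were between 2.27 and 6.76 FPKM in each sample and did not pass the test. The lower one was Elk1 (adjusted p = 0.0294, limma, at less than 2-fold), and quantile normalization gave 1 lower call in this list.

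**Figure D5:**
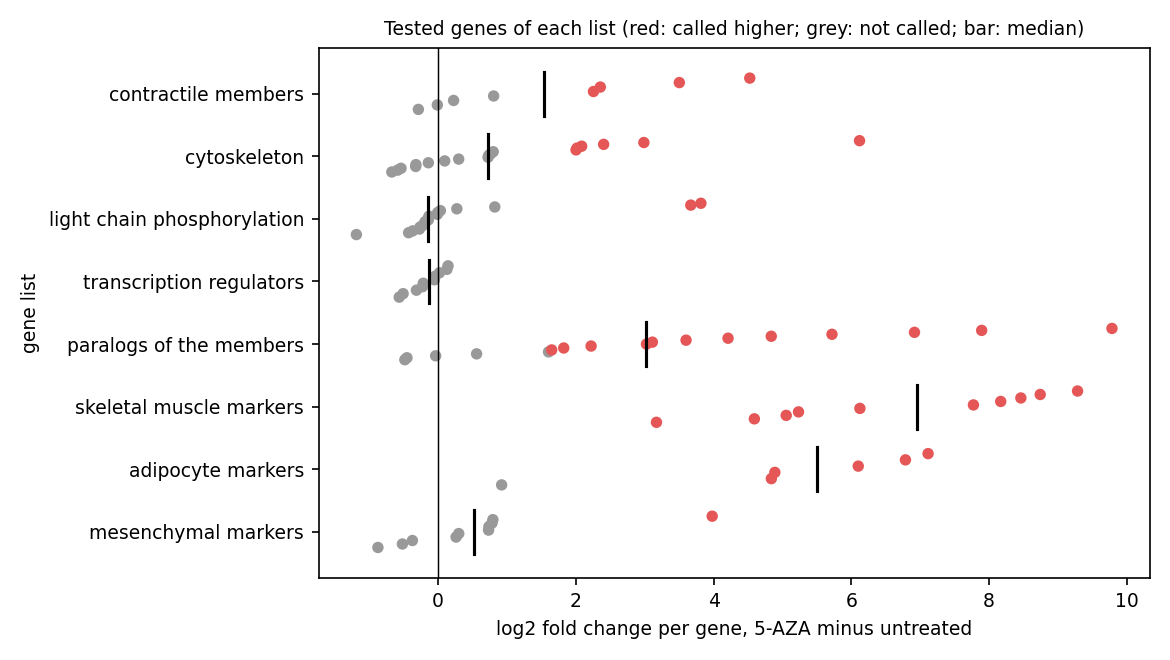
Fitted log2 fold change (x axis) of each tested gene in 8 gene lists (rows); red points were called higher, grey points were not called, and the black bar is the list's median. The contractile members spread from near 0 to 4.53, while the skeletal muscle markers all lie to the right of 3 and the transcription regulators lie near 0.

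Markers of other cell types moved in the same samples, where 13.1% of all genes tested were called higher and 1.32% lower. All 10 skeletal muscle markers were called higher, and their summed level went from 0.989 to 1.13 FPKM in the untreated samples to 437 to 691 FPKM in the 5-AZA samples. Of 6 adipocyte markers 5 were called higher, with sums of 30.1 to 45.3 FPKM and then 1094 to 1504 FPKM. With 5-AZA replicate 101 or 102 left out, 2 of them were called. Their part in the rise of Tagln, Myl9, Mylk and Cnn1 was not tested. Of the striated and non-muscle paralogs of the members, 12 of 17 tested were called higher, led by Mylpf, Myh3 and Myh1, and 0 lower. Their median was 3.03 on the log2 scale, and 9 were called after quantile normalization. Of the 12, 10 had an untreated mean below 0.1 FPKM and passed that limit through the 5-AZA samples alone. The same held for 7 of the 10 skeletal muscle markers and for 1 of the 5 adipocyte markers called. With a pseudocount of 1 FPKM the median of the paralogs was 0.78 and 8 were called.

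The labelled mesenchymal identity was checked on 10 markers of fibroblasts and mesenchymal cells. Their summed level was 3936 to 4004 FPKM in the untreated and 3261 to 3549 FPKM in the 5-AZA samples, and Thy1 was called higher while 0 were called lower. A further 7 passed the test at less than 2-fold, among them Vim (log2 fold change -0.87), Col1a1 (-0.52) and Col1a2 (-0.37) lower and Col3a1 (0.78), Pdgfra (0.74), Ly6a (0.73) and Eng (0.80) higher. Over all genes tested, 13.1% were called higher and 1.32% lower. Of 6 pericyte markers 4 were tested, and Notch3 and Mcam were called higher and Cspg4 lower. Their sum was 18.9 to 21.3 FPKM in the untreated and 9.75 to 12.5 FPKM in the 5-AZA samples, and Kcnj8 was listed at 0 throughout. Of 6 endothelial markers 4 were tested, and Cdh5 and Tek were called higher, calls that quantile normalization removed. Their sum was 0.456 to 0.662 FPKM and then 1.88 to 1.90 FPKM, and Kdr and Tie1 were listed at 0 in each sample. Of 6 immune cell markers 3 were tested, and Cd68 and Cd79a were called higher and lost these calls after quantile normalization. Their sum was 2.12 to 3.17 FPKM and then 3.42 to 5.30 FPKM, and Adgre1 and Cd3e were listed at 0 in each sample. Cdh5 and Cd79a passed the limit of 0.1 FPKM through the 5-AZA samples alone.

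Genes with a pattern close to that of Tagln were sought among 10799 others with a mean of at least 1 FPKM, by the root mean square distance between log2 values centred on each gene's mean over the 4 samples. Among the nearest were F420015M19Rik at a distance of 0.07 and Igfbp5 (a binding protein of insulin-like growth factors) at 0.11. Igfbp5 was at 1.15 and 0.605 FPKM in the untreated and at 21.0 and 24.7 FPKM in the 5-AZA samples. For Myh11, whose values lie near the pseudocount, they were Pla2g12a, Epm2a and Gata2, at distances of 0.04 to 0.06. With 4 samples such likeness says little beyond the split between the groups.

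Each transcript was also fitted on its own. Of the 27 transcripts of the 9 genes, 2 were called, NM_011526.5 of Tagln and NM_172118.1 of Myl9. Some of the 27 were too low to be tested, among them every Myh11 transcript. Of the 35557 transcripts tested over all genes, 2.1% were called higher. Each library held between 10298 and 11124 genes at 1 FPKM or more. The study calls the replicates of a group biological repeats, and the labels do not say how they were separated, so the p-values measure the spread between these samples. FPKM keeps no read counts, and the depth behind a single value is unknown.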

How the data were processed

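A stranded kit that removes ribosomal RNA was used to prepare libraries from total RNA of 4 samples. The authors deposited FPKM values per mRNA and lncRNA transcript, and RPM values per circRNA, for each sample separately. Submitters' processing notes list Trimmomatic, HISAT2, Bowtie2 2.2.9, eXpress 1.5.1 and the build mm9. All 2356 transcript positions in the circRNA table overlap the GRCm38.p6 gene of the same symbol, so positions are given as GRCm38. Listed lncRNA starts count from 0 and were raised by 1 base.

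Transcripts were summed per gene, and log2(FPKM + 0.1) was fitted with limma 3.58.1 (eBayes with trend, R 4.3.3) over both groups, for genes with a mean of at least 0.1 FPKM. p-values were adjusted over all genes, transcripts or lncRNAs tested. The fit was tested on simulated data with added rises only. Replicate spread was shuffled over genes there, so that test does not cover low genes such as Cnn1 in particular. FPKM are not counts, so the count test that the authors used was not applied. A fold change on this scale understates the change of low genes. The members and gene lists were chosen with earlier results of these data known. All 9 members are named, with up to 3 called genes per list with the largest change in each direction and Acta2, Actg2, Myocd, Srf, Myl6 and Tagln2; further genes named were chosen after their values were seen. Alternatives were other pseudocounts, limits, scalings, fold limits, no trend, curated transcripts and each sample left out. Some genes that the naming rule picks are not reported here.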

Additional observations from a re-analysis of the deposited data

How the results depend on the processing

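No paired analysis was run, because the labels do not say whether an untreated sample belongs with a 5-AZA sample. The 4 member calls held under every pseudocount, scaling and trend setting, while leaving out 1 sample gave between 2 and 4 calls, with 2 without either 5-AZA replicate (Tagln and Cnn1). Without a fold limit there were 5 calls, with a limit of 1 FPKM 3 (Cnn1 was not tested) and without a limit on low values 3 (Mylk was lost). Smtn, which was not called, changed sign without untreated replicate 1 (0.08), without 5-AZA replicate 101 (0.19) and with curated transcripts (0.0049), and ranged from -0.21 to 0.19 with 1 sample left out. Calls over all genes numbered 1898, and 961 with a pseudocount of 1 FPKM, 1262 without a limit on low values, 967 with a limit of 1 FPKM, 3232 without a fold limit and 803 to 1801 with 1 sample left out. Of these calls 90.8% were higher, and 54.0% after quantile normalization, which took the median log2 change of all genes from 0.05 to -0.12. The light chain, cytoskeleton, regulator and paralog lists together, without the KEGG pathway, held 20 calls, 12 with a limit of 1 FPKM and 12 to 19 with 1 sample left out. Member transcripts called numbered 2, with 0 without a limit on low values, 1 without trend and 0 to 1 with 1 sample left out. With curated transcripts, 3 members changed place by level. The cause of these changes was not tested, beyond fewer genes or samples in a fit.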
